A study of Mus musculus with 12 samples.

Results

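The anaphase-promoting complex/cyclosome (APC/C) was examined through 10 of the 24562 genes in the deposited tables, chosen by symbol: the activators Cdc20 and Fzr1, the inhibitors Fbxo5 and Fbxo43, and the core subunits Anapc1, Anapc2, Anapc10, Cdc16, Cdc23 and Cdc27. Their transcripts were measured by RNA-Seq in 12 pools of 18 to 45 oocytes from CD-1 mice, with 3 pools in each of 4 cohorts. The study names 3 mice per condition, and the labels do not say which mouse or mice a pool came from. The youngest and oldest mice were at postnatal day (PND) 13 and PND 40, and those at PND 16 were divided by body weight into large and small mice. Their oocytes came from antral follicles of mice given no hormones. In the study's grouping, PND 13 and PND 16 small oocytes were non-competent and PND 16 large and PND 40 oocytes were competent. Competence is the ability to resume meiosis and reach metaphase II in culture. It was assigned by cohort and not measured in the oocytes that were sequenced. No genotype or treatment other than the strain is given for any cohort, all oocytes were collected in milrinone, which keeps them in prophase arrest, and a pool mixes the oocytes of a cohort, so that a level is an average over cells that may differ in stage.

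APC/C is a ubiquitin ligase that marks cyclins, securin and other cell cycle proteins for degradation. It works only with an activator, CDC20 or CDH1 (encoded by Fzr1), which brings in the substrates. In the mouse oocyte, APC/C with CDH1 holds cyclin B1 low during prophase arrest, EMI1 (Fbxo5) restrains CDH1 at the entry into meiosis, CDC20 drives the first anaphase, and EMI2 (Fbxo43) holds the egg at metaphase II until fertilization. Transcripts stored during oocyte growth supply these proteins later, when transcription has stopped.

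Pools held 17671193 to 27418358 counts each, and all 10 genes were among the 13943 that passed the filter on low counts. Levels are given as CPM, counts relative to the pool's total with edgeR's TMM scaling, so a level is a share of the pool's RNA and not an amount per oocyte. The summed level of 10 oocyte markers, including Zp3, Gdf9 and Bmp15, was between 14018 and 18733 CPM in every pool, and the 3 pools of PND 40 (14018 to 14650 CPM) lay below all others. Of these markers 6 were lower and 2 higher in competent vs. non-competent oocytes by edgeR's adjusted p. That of 10 granulosa cell markers, all detected in every pool, was 42.2 to 455 CPM at PND 13 and 61.2 to 543 CPM in PND 16 small. In the competent cohorts it was 108 to 114 CPM (PND 16 large) and 76.5 to 93.5 CPM (PND 40). PND 13 replicates 1 and 3 and PND 16 small replicate 2 stood apart, at 381 to 543 CPM vs. 42.2 to 127 CPM in the other 9 pools. Of 5 theca cell markers, 3 were detected in every pool, and Cyp17a1 and Lhcgr were at or near 0, and their summed level was 31.7 to 53.6 CPM in the same 3 pools and 4.03 to 11.5 CPM in the others. Rn45s, the precursor of ribosomal RNA, took 1.46% to 2.98% of the counts in non-competent pools and 0.52% to 0.95% in competent pools, and its part in the differences below was not tested. The figures show results with all 12 pools. Single-gene calls below between 2 groups that were lost without those 3 pools high in granulosa markers are given with the value without them. PND 13 is then a single pool, assumed to vary like the other cohorts. The part of granulosa cell RNA was not otherwise tested. In pooled RNA, fewer cells of a type and less RNA per cell cannot be told apart.

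The promoters of Cdc20 and Anapc2 are shown first, because Cdc20 and Anapc2 rose together in competent oocytes while differing in the sequence before their starts. RefSeq promoter sequences were matched for 8 of the 10 genes, and the 250 bases before each start were searched on both strands for TTTGAA, the core of the cell cycle genes homology region (CHR), and for CCAAT, the box bound by NF-Y. Both motifs are known from promoters of genes expressed late in the cell cycle. Each sequence runs 5′ to 3′ on the strand of its gene and ends at the base before the start, with the motifs in capitals. That of Cdc20 lies at chr4:118437344-118437593 on the minus strand of GRCm38.p6, with its last 9 bases inside the GENCODE model of the gene. That of Anapc2 lies at chr2:25272216-25272465 on the plus strand.
Cdc20: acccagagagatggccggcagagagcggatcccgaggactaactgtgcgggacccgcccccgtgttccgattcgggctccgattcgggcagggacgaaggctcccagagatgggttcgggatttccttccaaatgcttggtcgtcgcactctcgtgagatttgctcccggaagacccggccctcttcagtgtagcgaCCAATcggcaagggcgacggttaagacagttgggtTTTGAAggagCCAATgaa
Anapc2: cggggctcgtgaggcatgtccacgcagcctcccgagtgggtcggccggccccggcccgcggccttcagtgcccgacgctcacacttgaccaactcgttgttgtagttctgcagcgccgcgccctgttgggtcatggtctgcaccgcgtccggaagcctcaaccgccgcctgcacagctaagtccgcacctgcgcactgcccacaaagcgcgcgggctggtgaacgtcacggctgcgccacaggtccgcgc
The Cdc20 window held TTTGAA 13 bases before the start, and CCAAT 4 and 49 bases before it. The Anapc2 window held neither motif. Fbxo43 and Cdc23 had no matched promoter sequence and were not searched, so nothing is known here of their motifs. The other 8 genes had 9 windows, since Anapc10 has 2 starts. CCAAT was found in 5 of the 9 (those of Cdc20, Fzr1, Fbxo5 and Cdc27 and 1 of the 2 of Anapc10) and TTTGAA in that of Cdc20 alone, whereas 33.8% and 16.0% of the 32851 mouse promoter windows of the same length held them. A match is a description of the letters and not a measured binding site.

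Cdc20 transcripts, which encode the activator of the first meiotic anaphase, were higher in competent than in non-competent oocytes, and the 2 sets of 6 pools did not overlap. The level was 68.7, 78.7 and 71.8 CPM in the 3 pools of PND 13, and 69.7, 76.1 and 80.9 CPM in those of PND 16 small. It was 81.9, 89.5 and 89.5 CPM in PND 16 large and 97.6, 93.0 and 94.5 CPM at PND 40. The means were 91.0 ± 5.41 CPM in competent and 74.3 ± 5.0 CPM in non-competent oocytes (SD, n = 6 pools each), a log2 fold change of 0.29 ± 0.0655 (SE) or 1.22-fold. Cdc20 passed edgeR's quasi-likelihood test in this comparison (Benjamini-Hochberg adjusted p = 0.00404) and in PND 40 vs. PND 13, at 1.30-fold (edgeR adjusted p = 0.00369). Within PND 16, the large and small pools did not overlap either, but the log2 fold change of 0.20 did not pass the test (edgeR adjusted p = 0.127). Without the 3 pools high in granulosa markers, Cdc20 was 0.26 higher in competent oocytes on the log2 scale, with an edgeR adjusted p of 0.0508, and 0.27 higher at PND 40 than at the single PND 13 pool left, with an edgeR adjusted p of 0.141.

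**Figure D1:**
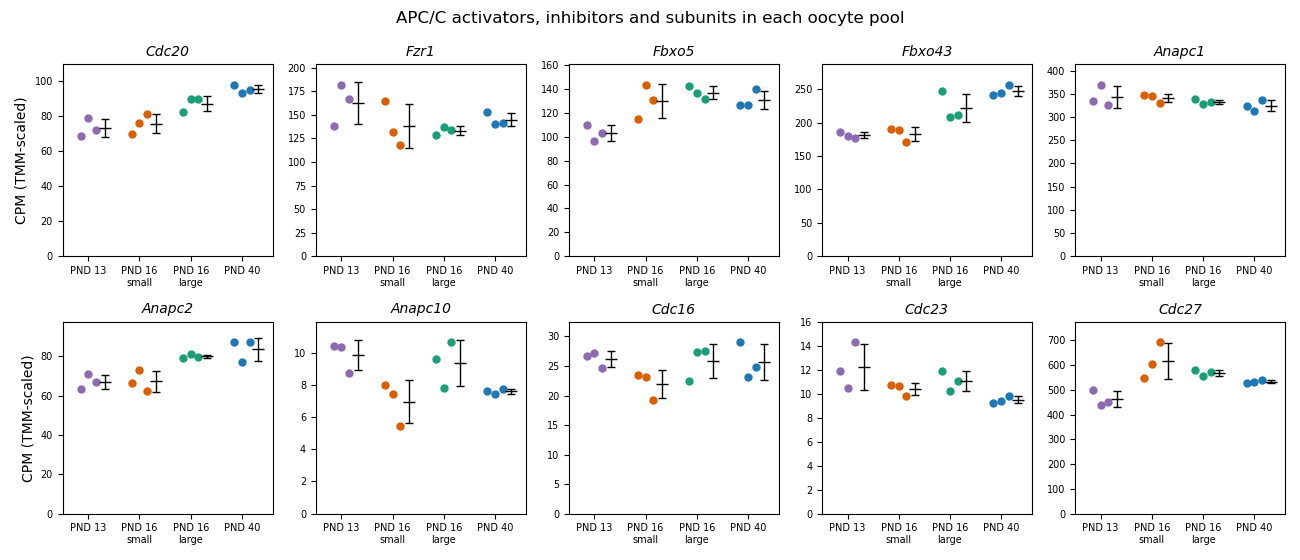
Level of each of the 10 genes in the 12 oocyte pools, in TMM-scaled CPM (y axis, from 0) by cohort (x axis). Coloured points are pools and the black bar beside them is the mean ± SD of the 3 pools. Cdc20, Fbxo43 and Anapc2 are higher in all 6 pools of PND 16 large and PND 40 than in all 6 of PND 13 and PND 16 small.

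Fzr1, the activator that acts during prophase arrest, did not pass the test in any comparison with all 12 pools and TMM scaling. Its pools held 138, 182 and 167 CPM at PND 13, 165, 132 and 118 CPM in PND 16 small, 129, 137 and 134 CPM in PND 16 large, and 153, 141 and 141 CPM at PND 40. The competent pools all fell within the range of the non-competent ones, which spread from 118 to 182 CPM. In competent vs. non-competent oocytes the log2 fold change of Fzr1 was -0.11, with a 95% interval of -0.31 to 0.09, so a fall of more than 0.31 or a rise of more than 0.09 lies outside that interval. The lowest level relative to PND 13 was that of PND 16 large, with a log2 fold change of -0.28 (edgeR adjusted p = 0.091). This value passed with scaling by total counts (-0.38, edgeR adjusted p = 0.0413) and without PND 13 replicate 1 (-0.39, edgeR adjusted p = 0.0346). The log2 fold change from PND 13 to PND 16 small passed when replicate 1 of the latter was left out (-0.38, edgeR adjusted p = 0.0324).

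Fbxo43, whose product EMI2 keeps the egg at metaphase II, had the largest change of the 10 genes in competent vs. non-competent oocytes. Its level was 186, 180 and 177 CPM at PND 13 and 190, 189 and 171 CPM in PND 16 small. It reached 247, 209 and 212 CPM in PND 16 large and 242, 245 and 257 CPM at PND 40, above every non-competent pool. The means were 235 ± 19.9 CPM and 182 ± 7.48 CPM (SD, n = 6 pools each), a log2 fold change of 0.37 ± 0.0625 (SE) or 1.29-fold (edgeR adjusted p = 0.000641). Fbxo43 was also the only one of the 10 genes to pass the test in PND 16 large vs. PND 16 small, where the mice were of the same age (log2 fold change 0.28, 1.22-fold, edgeR adjusted p = 0.028). Without the 3 pools high in granulosa markers it still passed the test, at 0.39 in competent vs. non-competent oocytes (edgeR adjusted p = 0.00844) and 0.31 within PND 16 (edgeR adjusted p = 0.0435). The call within PND 16 was lost without PND 16 large replicate 1, the highest pool there (log2 fold change 0.20, edgeR adjusted p = 0.145), and without PND 16 small replicate 3 (0.23, edgeR adjusted p = 0.079).

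Fbxo5, which encodes the CDH1 inhibitor EMI1, was lowest at PND 13. Its pools held 110.0, 96.2 and 103 CPM at PND 13, below each of the other 9, and 115, 143 and 131 CPM in PND 16 small. The level was 142, 137 and 131 CPM in PND 16 large and 126, 126 and 140.0 CPM at PND 40, so that the last 3 cohorts overlapped. Fbxo5 rose 1.27-fold in PND 40 vs. PND 13 (log2 fold change 0.34 ± 0.0874 SE, edgeR adjusted p = 0.00865) and 1.33-fold in PND 16 large vs. PND 13 (edgeR adjusted p = 0.00487). In PND 16 small vs. PND 13 the log2 fold change was 0.33, of like size, and the edgeR adjusted p was 0.071. Within PND 16 it was 0.07, with a 95% interval of -0.11 to 0.26, and in competent vs. non-competent oocytes it was 0.20 (edgeR adjusted p = 0.0999). The first of the 3 values that missed the threshold passed with DESeq2 (adjusted p = 0.0168) and without PND 16 small replicate 1 (0.41, edgeR adjusted p = 0.00951). The last passed as a contrast of cohort means (0.21, edgeR adjusted p = 0.0163) and without PND 16 small replicate 2 (0.26, edgeR adjusted p = 0.0196).

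Among the 6 core subunits chosen at the start, only Anapc2 passed the test in competent vs. non-competent oocytes. Anapc2 is the cullin subunit that with Anapc11 forms the catalytic core. The shares of all genes that passed there were 30.7% in either direction and 14.2% higher. Among the 8 other core subunits, described further below, 4 passed, all higher. Anapc2 held 63.2, 70.7 and 66.8 CPM at PND 13 and 66.6, 73.0 and 62.4 CPM in PND 16 small. All pools of PND 16 large (79.1, 81.0 and 79.5 CPM) and of PND 40 (87.0, 76.9 and 87.0 CPM) lay above these. The log2 fold change of Anapc2 was 0.28 ± 0.0635 (SE) or 1.22-fold (edgeR adjusted p = 0.00395), and 0.30 without the 3 pools high in granulosa markers (edgeR adjusted p = 0.0232). In PND 40 vs. PND 13 it rose 1.25-fold (edgeR adjusted p = 0.0114), and this call was lost without those pools, when PND 13 is a single pool (log2 fold change 0.24, edgeR adjusted p = 0.183).

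Cdc27, a scaffold subunit that binds the activators, was highest in PND 16 small. The pools held 499, 440 and 453 CPM at PND 13, 549, 605 and 692 CPM in PND 16 small, 581, 555 and 571 CPM in PND 16 large, and 526, 533 and 541 CPM at PND 40. Every pool of the other 3 cohorts was above the 3 pools of PND 13. Cdc27 rose 1.33-fold in PND 16 small vs. PND 13 (log2 fold change 0.41 ± 0.0803 SE, edgeR adjusted p = 0.0362) and 1.23-fold in PND 16 large vs. PND 13 (edgeR adjusted p = 0.0167). From PND 13 to PND 40 the log2 fold change of 0.20 did not pass the test (edgeR adjusted p = 0.0694). The rise in PND 16 small was 0.35 without PND 13 replicate 2, 0.39 without PND 13 replicate 3, 0.40 without PND 16 small replicate 2 and 0.30 without PND 16 small replicate 3, each with an edgeR adjusted p between 0.068 and 0.159. In PND 16 large vs. PND 13 the call was lost in 4 of 6 fits that left out 1 pool, with edgeR adjusted p between 0.0564 and 0.0698 and log2 fold changes of 0.24 to 0.28. Both calls of Cdc27 were lost without the 3 pools high in granulosa markers, at 0.49 in PND 16 small vs. the PND 13 pool left (edgeR adjusted p = 0.161) and 0.38 in PND 16 large (edgeR adjusted p = 0.0588).

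Anapc1, the largest subunit and a platform of the complex, ranged from 312 to 369 CPM over the 12 pools, with a 95% interval of -0.17 to 0.05 for its log2 fold change in competent vs. non-competent oocytes. A change of the size seen for Cdc20 lies outside that interval. Cdc16, a further scaffold subunit, ranged from 19.2 to 29.0 CPM and did not pass the test in any comparison. Anapc10 and Cdc23 were the lowest of the 10, at 5.46 to 10.6 CPM and 9.22 to 14.3 CPM, and neither passed a test with all 12 pools and TMM scaling. Cdc23 had a log2 fold change of -0.37 in PND 40 vs. PND 13 (edgeR adjusted p = 0.0817), which passed with total counts (-0.44, edgeR adjusted p = 0.0472) and without PND 13 replicate 2 (-0.49, edgeR adjusted p = 0.0359), and was -0.15 without the 3 pools high in granulosa markers. Anapc10, which helps to hold substrates on the complex, was 10.4, 10.4 and 8.76 CPM at PND 13, 7.97, 7.44 and 5.46 CPM in PND 16 small, 9.57, 7.81 and 10.6 CPM in PND 16 large, and 7.63, 7.45 and 7.75 CPM at PND 40. Its counts were 92 to 267 per pool, and its 95% interval in PND 40 vs. PND 13 was -0.78 to 0.04 on the log2 scale. Both low genes are uncertain in another way. Anapc10 shares 553 bases at 97.3% identity with the transcript of Gm15530, and the Cdc23 gene overlaps Kif20a on the opposite strand, with 979 transcript bases in common. Strand use in counting is not given in the sources used here.

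None of the 10 genes met both of the study's criteria for differential expression, which are a fold change of 1.5 or more and an adjusted p no higher than 0.05, in any of the 7 comparisons. The share of all genes tested that met both was 18.9% in PND 40 vs. PND 13, 6.19% in PND 16 large vs. PND 16 small and 15% in competent vs. non-competent oocytes. Among the remaining pairs it was 13.3% in PND 16 large vs. PND 13, 17.2% in PND 40 vs. PND 16 small, 3.66% in PND 40 vs. PND 16 large and 0.373% in PND 16 small vs. PND 13. The largest change of the 10 that passed the test was that of Fbxo43 in PND 40 vs. PND 13, at 1.37-fold. Counted by edgeR's adjusted p alone, 3 of 10 passed in competent vs. non-competent oocytes, all higher, when 30.7% of all genes passed and 14.2% passed and were higher. In PND 40 vs. PND 13, 4 of 10 passed (Cdc20, Fbxo5, Fbxo43 and Anapc2), all higher, vs. 33.1% of all genes, with 16.3% higher. In PND 16 large vs. PND 16 small 1 of 10 passed, vs. 12.3% of all genes, with 4.98% higher. The median log2 fold change of the 10 was 0.06, 0.08 and 0.14 in these comparisons, and that of all genes tested was -0.0046, 0.0044 and -0.02. Pools of the groups compared did not overlap for 3, 7 and 3 of the 10 genes in these comparisons, vs. 14.7%, 50.8% and 31.5% of all genes. The shares that passed in either direction were close to those of all genes tested. Without the 3 pools high in granulosa markers, 2 passed in competent vs. non-competent oocytes (Fbxo43 and Anapc2), vs. 18.2% of all genes. In PND 40 vs. the single PND 13 pool left, log2 fold changes of Cdc20, Fbxo5, Fbxo43 and Anapc2 were 0.27, 0.45, 0.46 and 0.24. Between PND 16 large and PND 16 small, 2 passed (Fbxo43 and Anapc2), vs. 14.2% of all genes. Within PND 16 the count became 0 without PND 16 small replicate 3 or PND 16 large replicate 1, and 2 (Fbxo43 and Anapc2) without PND 16 small replicate 2.

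The remaining pairs of cohorts were compared in the same way. In PND 16 large vs. PND 13, 5 of 10 passed (Cdc20, Fbxo5, Fbxo43, Anapc2 and Cdc27), all higher, vs. 25.6% of all genes and 12.6% higher. Without PND 16 large replicate 1 only Fbxo5 of these passed, and leaving out other pools in turn gave 2 to 4, the calls of Cdc20 and Anapc2 each being lost in 5 of 6 such fits. Fbxo5 alone passed without the 3 pools high in granulosa markers (log2 fold change 0.51, edgeR adjusted p = 0.0199), and the values of Cdc20, Fbxo43 and Anapc2 were 0.15, 0.31 and 0.18 (edgeR adjusted p = 0.45, 0.112 and 0.347). Of the 10 genes, 3 passed in PND 40 vs. PND 16 small (Cdc20, Fbxo43 and Anapc2), vs. 30.2% of all genes and 14.5% higher. PND 16 small vs. PND 13, the pair before competence, gave only Cdc27, vs. 0.925% of all genes and 0.689% higher, and without PND 16 small replicate 1 it gave 3. It gave 0 in edgeR without the 3 pools high in granulosa markers. PND 40 vs. PND 16 large, the pair of competent cohorts, gave 0 of 10 by edgeR and by DESeq2, vs. 6.83% of all genes and 3.59% higher. It also gave 0 of 10 at an unadjusted p under 0.05 in edgeR, vs. 22.4% of all genes. The log2 fold changes in that last pair ran from -0.29 (Anapc10) to 0.16 (Fbxo43). These pairs share pools and are not independent of each other. Tested over the 4 cohorts at once, 5 of 10 passed (Cdc20, Fbxo5, Fbxo43, Anapc2 and Cdc27), vs. 39.7% of all genes. Single-gene results of this test without the 3 pools high in granulosa markers, which leaves 1 pool at PND 13, are not reported here.

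**Figure D2:**
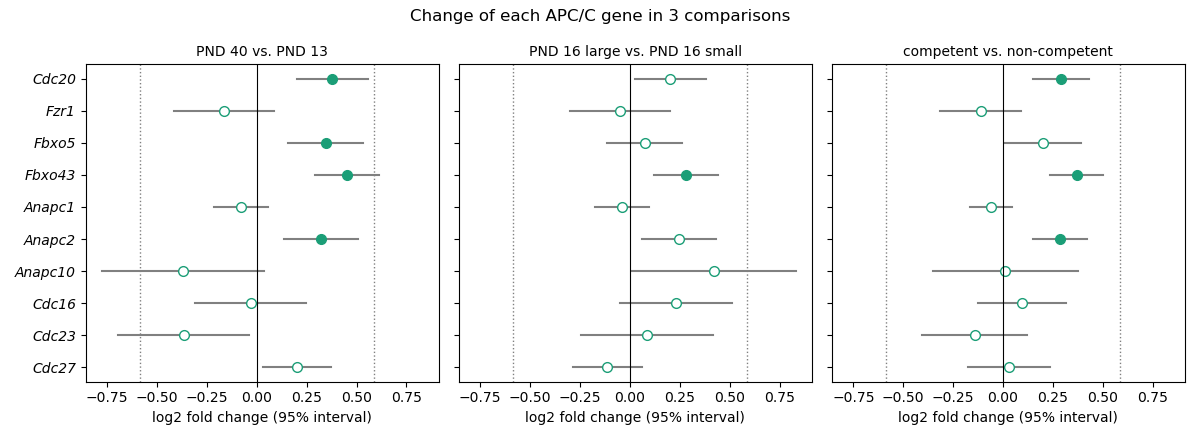
Log2 fold change (x axis) of each gene (y axis) in PND 40 vs. PND 13, PND 16 large vs. PND 16 small, and competent vs. non-competent oocytes. Points are edgeR estimates, filled at an adjusted p of at most 0.05, with 95% intervals as grey lines and a 1.5-fold change as dotted lines. All filled points lie above 0 and inside the 1.5-fold line, the farthest being Fbxo43 in PND 40 vs. PND 13 at 0.45.

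The steps from PND 13 to PND 40 and from PND 16 small to PND 16 large have no pool in common, so their fold changes were compared with each other. None of the 10 genes passed the test of this difference in edgeR (3 had an unadjusted p under 0.05, vs. 16.1% of all genes), and 0.61% of all genes passed it. For Fbxo43 the first step was 0.17 larger on the log2 scale (95% interval -0.05 to 0.40) and for Cdc20 it was 0.18 larger (95% interval -0.08 to 0.43). Anapc10 had the widest gap, with a log2 fold change of -0.37 in the first step and 0.42 in the second (difference -0.79, edgeR adjusted p = 0.174). Without PND 16 small replicate 1, Cdc27 passed (difference 0.39, edgeR adjusted p = 0.0485).

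Balance between an activator and its partner was followed as the log2 ratio of the counts of 2 genes within a pool, which does not depend on scaling between pools. The ratio of Cdc20 to Fzr1 was -1.01, -1.21 and -1.22 at PND 13, -1.24, -0.79 and -0.55 in PND 16 small, -0.65, -0.62 and -0.58 in PND 16 large, and -0.65, -0.60 and -0.58 at PND 40. The 6 competent pools lay close together, whereas the non-competent pools were spread widely and PND 16 small replicate 3 lay above every competent pool. The mean was -0.61 ± 0.033 in competent and -1.0 ± 0.28 in non-competent oocytes (SD, n = 6), a difference of 0.39 (two-sided exact permutation p = 0.0152, adjusted p = 0.0456 over the 3 ratios, smallest possible p 0.00216). Without the 3 pools high in granulosa markers the difference was 0.385 and the exact permutation test gave an adjusted p of 0.196. The adjusted p was also 0.0844 by exact permutation without any 1 of the 6 competent pools, with a difference of 0.38 to 0.40. The ratio of Fbxo5 to Fzr1 was -0.65 ± 0.30 at PND 13 and -0.08 ± 0.38 in PND 16 small, with 0.04 ± 0.0949 in PND 16 large and -0.15 ± 0.13 at PND 40 (SD, n = 3), and did not differ between competent and non-competent oocytes by more than the spread (difference 0.31, exact permutation adjusted p = 0.198). Fbxo43 to Cdc20, the APC/C inhibitor that holds the second arrest to the activator that ends it, stayed between 1.08 and 1.59 in all 12 pools (difference 0.07, exact permutation adjusted p = 0.383).

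**Figure D3:**
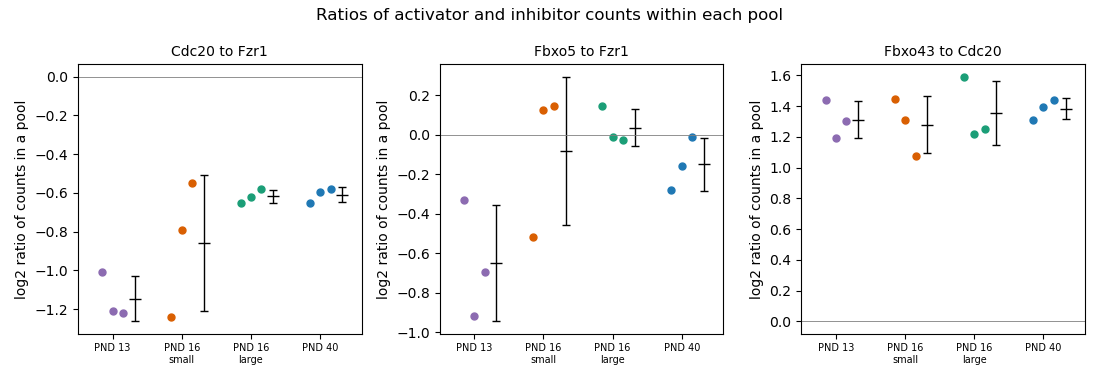
Log2 ratio of the counts of 2 genes in each pool (y axis, differing between panels) by cohort (x axis), with the mean ± SD of 3 pools in black. In the Cdc20 to Fzr1 panel the 6 pools of PND 16 large and PND 40 lie between -0.65 and -0.58, and those of PND 13 and PND 16 small between -1.24 and -0.55.

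Per kilobase of merged exons (GENCODE M21), which allows levels of different genes to be set side by side, Cdc27 was the highest of the 10 in every cohort and Anapc10 the lowest. Cdc27 held 91.1 ± 1.26 CPM per kb at PND 40 (SD, n = 3) and Anapc10 1.63 ± 0.0332 CPM per kb, although all subunits belong to 1 complex. The inhibitors and activators lay between, with Fbxo5 at 67.5 ± 4.07, Fbxo43 at 61.5 ± 1.92, Cdc20 at 53.0 ± 1.30 and Fzr1 at 47.5 ± 2.33 CPM per kb. Next came Anapc1 at 32.2 ± 1.26, Anapc2 at 27.8 ± 1.94, Cdc16 at 11.2 ± 1.31 and Cdc23 at 2.12 ± 0.0665 CPM per kb. At PND 13 the order within the middle group was different. Fbxo5 and Fzr1 (53.1 ± 3.55 and 53.1 ± 7.22 CPM per kb) did not differ beyond their spread, and Fbxo43 (44.9 ± 1.13) and Cdc20 (40.7 ± 2.85) followed. The transcript isoforms present in oocytes were not resolved, and a longer or shorter isoform would move a gene in this order.

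Within the genome (GRCm38), Cdc20 lies on chromosome 4 at 118432901-118437352 and Fzr1 on chromosome 10 at 81366222-81378516. Fbxo5 lies on chromosome 10 at 5799160-5805600, Fbxo43 on chromosome 15 at 36150060-36164884 and Anapc2 on chromosome 2 at 25272478-25285915. Counts were made over whole genes. Cdc20 shares 53 bases with Elovl1 and Fzr1 4 bases with Mfsd12 on the opposite strand, and Fbxo5, Fbxo43 and Anapc2 overlap no other annotated gene.

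Across the 12 pools, the log2 levels of Cdc20, Fbxo43 and Anapc2 correlated, with Pearson's r of 0.76 to 0.86 between pairs. Fzr1 correlated negatively with Cdc27 (r = -0.86) and Fbxo5 (r = -0.79). The 3 of 9236 other genes with levels most like Cdc20 were Lamtor3, Tmem39b and Gbf1 (r = 0.94 to 0.96). Ythdc1, Wwc2 and Hnrnpu were most like Fbxo5 (r = 0.95), and Sart3, Ern1 and Sf3b3 most like Fbxo43 (r = 0.97). These values describe 12 pools that fall into 4 cohorts and share library composition within a pool, and the genes were selected as the highest of many.

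The other core subunits were compared in the same way. In competent vs. non-competent oocytes 4 of 8 passed the test, all higher, vs. 30.7% of all genes in either direction and 14.2% higher. These were Anapc4, Anapc11, Anapc15 and Anapc16, with log2 fold changes of 0.24, 0.29, 0.52 and 0.38. The median of the 8 was 0.26, and 5 of all 14 core subunits passed. Anapc15, a small subunit that helps to release CDC20 from checkpoint inhibition, was 20.3 to 32.3 CPM in the non-competent pools and 36.8 to 42.5 CPM in the competent ones. It was the only core subunit that met both criteria, in PND 40 vs. PND 13 (1.59-fold, edgeR adjusted p = 0.00213). Without the 3 pools high in granulosa markers its log2 fold change there was 0.50, under 1.5-fold. The Anapc15 gene overlaps Folr1 (7074 bases) and Tomt (3480 bases) on the opposite strand. Anapc16 rose within PND 16 as well, from 64.8 ± 3.84 to 85.1 ± 1.04 CPM (SD, n = 3, edgeR adjusted p = 0.0119). Anapc11, the RING subunit that partners Anapc2, was 24.7 to 30.6 CPM on average over the cohorts and rose 1.22-fold. Without those 3 pools 2 of 8 passed in competent vs. non-competent oocytes, vs. 18.2% of all genes. The values of Anapc4 and Anapc11 were then 0.22 and 0.22 (edgeR adjusted p = 0.0616 and 0.201). Anapc5, Anapc7, Anapc13 and Cdc26 did not pass in this comparison with all pools.

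Of the 2 E2 enzymes that hand ubiquitin to APC/C, 1 passed the test in competent vs. non-competent oocytes. The share of all genes that passed there was 30.7% in either direction, with 14.2% higher. Ube2s, which extends ubiquitin chains, rose 1.37-fold in competent oocytes (log2 fold change 0.45, edgeR adjusted p = 0.0326), while the value for Ube2c, which starts them, was -0.32 (edgeR adjusted p = 0.063). Ube2s was at 0.46 without the 3 pools high in granulosa markers (edgeR adjusted p = 0.119). The genes overlap others on the opposite strand.

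Of 6 regulators of APC/C and its inhibitors, 2 rose and 2 fell in competent vs. non-competent oocytes, with and without the 3 pools high in granulosa markers. With all pools, 14.2% of all genes were higher and 16.5% lower. Without those 3, 18.2% of all genes passed in either direction. Cdc14b, a phosphatase reported to act on CDH1, had the largest fall of all listed genes. Its level was 37.6 to 59.8 CPM at PND 13 and 56.7 to 82.1 CPM in PND 16 small, and it was 28.1 to 42.4 CPM in PND 16 large and 17.8 to 26.6 CPM at PND 40. It fell by 1.07 on the log2 scale (edgeR adjusted p = 0.0023), and by 1.06 within PND 16 (edgeR adjusted p = 0.0115). An antisense gene, 1810034E14Rik, overlaps Cdc14b. The F-box proteins of the ligase that targets EMI1 for degradation went opposite ways, with Btrc higher (log2 fold change 0.24, edgeR adjusted p = 0.00527) and Fbxw11 lower (log2 fold change -0.43, edgeR adjusted p = 0.00263). Plk1, the kinase that marks EMI1 and EMI2 for that ligase, rose by 0.28 (edgeR adjusted p = 0.0386). Cdc14a and Camk2g did not pass in this comparison.

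Among 6 genes of the spindle assembly checkpoint, which holds CDC20 inactive until chromosomes are attached, 3 rose in competent oocytes and none fell. Of all genes, 30.7% passed in either direction and 14.2% passed and were higher. The same 3 passed without the 3 pools high in granulosa markers, vs. 18.2% of all genes in either direction. Bub1b, encoding BUBR1, was the most abundant, at 1091 to 1390.0 CPM at PND 13 and 1331 to 1383 CPM in the small mice of PND 16, then 1602 to 1684 CPM in PND 16 large and 2175 to 2393 CPM at PND 40. It rose 1.51-fold (log2 fold change 0.60, edgeR adjusted p = 0.00121). Bub3 rose 1.38-fold and the kinase Ttk 1.30-fold, and the median of the 6 was 0.34. The Bub3 gene overlaps Fgfr2 by 11674 bases on the opposite strand. Mad2l1, the core of the inhibitory complex, had a log2 fold change of 0.09, with a 95% interval of -0.05 to 0.24.

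Of 11 known APC/C substrates, 4 rose in competent oocytes (Ccnb1, Aurka, Tpx2 and Nek2) and 1 fell (Ccnb2), vs. 30.7% of all genes in either direction, and their median log2 fold change was 0.17. Of the 11, 3 passed without the 3 pools high in granulosa markers, vs. 18.2% of all genes. Tpx2 (0.24) and Ccnb2 (-0.20) were lost, with an edgeR adjusted p of 0.0901 and 0.0902. Aurka, a spindle kinase, went from 166 to 186 CPM at PND 13 and 168 to 200.2 CPM in the small PND 16 mice to 229.8 to 250.3 CPM in PND 16 large and 274 to 280.1 CPM at PND 40 (log2 fold change 0.55, edgeR adjusted p = 9.6e-05). Cyclin B1 transcripts (Ccnb1) rose 1.28-fold and those of cyclin B2 (Ccnb2) fell by 0.18 on the log2 scale (edgeR adjusted p = 0.0339). Pttg1, encoding securin, had a log2 fold change of -0.0047 (95% interval -0.23 to 0.23). Ccnb3, the cyclin that helps oocytes through the first anaphase, rose 1.57-fold in PND 40 vs. PND 13 (edgeR adjusted p = 0.00249), from 43.6 to 63.3 CPM to 80.9 to 88.2 CPM. The 6 pools of PND 16 held 86.8 to 119 CPM, a range that overlaps that of PND 40.

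**Figure D4:**
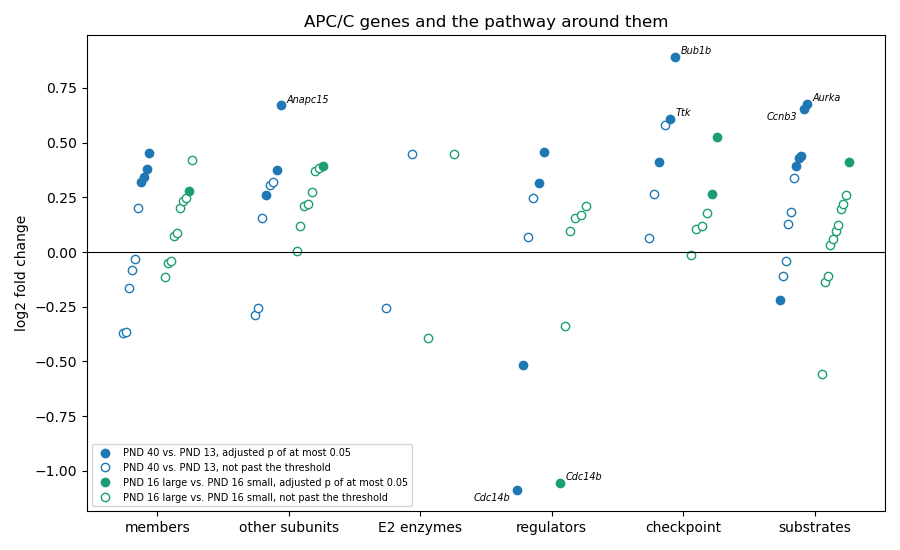
Log2 fold change (y axis) of the 10 genes and of the 5 lists of related genes (x axis), in PND 40 vs. PND 13 (blue) and PND 16 large vs. PND 16 small (green). Each point is a gene, filled at an edgeR adjusted p of at most 0.05 and named where it also changed by at least 1.5-fold. Bub1b (0.89) lies highest and Cdc14b (-1.09 and -1.06) lowest.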

How the data were processed

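Oocyte RNA was depleted of ribosomal RNA, made into directional libraries and read on a HiSeq (50-base reads), and the authors used the Rosalind platform for the reads. The submitters' processing notes name FastQC, STAR, HTSeq, DESeq, DESeq2, HOMER and the mm10 build. The versions and the strand setting are not given in the sources used here. The authors deposited raw counts of reads on each of 24562 genes in each pool, and log2 values of the same table. The deposited log2 values were checked to be log2 of size-factor-scaled counts with 1 added (ratio constant to 7.04e-12% within a pool). All columns were matched to samples by the labels.

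Counts were analysed in R 4.3.3 with edgeR 4.0.16. Genes were filtered by filterByExpr (minimum count 10) and pools scaled by TMM (factors 0.955 to 1.07). The 6 pairs of cohorts were contrasts in a robust quasi-likelihood model of the 4 cohorts with all 12 pools, and a model of 2 groups gave competent vs. non-competent oocytes. Two-sided p-values were adjusted by Benjamini-Hochberg over the 13943 genes tested, and a gene passed the test at an adjusted p of at most 0.05. Standard errors were approximated from the size of the log2 fold change and the F statistic. Ratios within a pool were tested by exact permutation of pools. The code was tested on simulated data. Total counts were 17671193 to 27418358, and pools of a cohort differed by more than sampling noise, the chi-square per gene lying between 9.24 and 50.2. Reads had no molecular identifiers. The study describes 3 mice per condition and 3 independent pools, and the labels do not tie a pool to a mouse, so p-values measure the spread between pools.

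The 10 members and the lists of related genes were chosen with earlier results of these data known. Named genes are the members, the genes of 5 lists compiled by hand (other core subunits, E2 enzymes, regulators, checkpoint genes and substrates) and, for Cdc20, Fzr1, Fbxo5 and Fbxo43, the 3 genes of at least 5 CPM with the highest Pearson's r of log2 CPM (prior count 2). Those for Fzr1 are not reported here. Gene positions are those of GENCODE M21 on GRCm38, copies were sought with BLAST 2.17.0, and promoters are from RefSeq (GRCm38.p6). Alternatives were DESeq2 1.42.0, RLE factors, total counts, no filter, limma 3.58.1 on the deposited log2 values, a model of only the cohorts compared, a contrast of cohort means, no fold criterion, the replicate number as a block, leaving out each pool and, chosen after seeing the data, leaving out the 3 pools highest in granulosa markers. For the related lists only the last of these was run, in 3 comparisons.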

Additional observations from a re-analysis of the deposited data

Results flagged for a closer look

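Bub1b, which encodes the checkpoint protein BUBR1, changed by different amounts in the comparisons of cohorts that share no pool. Its log2 fold change was 0.89 (95% interval 0.72 to 1.07) in PND 40 vs. PND 13 and 0.27 (95% interval 0.09 to 0.44) in PND 16 large vs. PND 16 small, a difference of 0.63 (95% interval 0.38 to 0.87, edgeR adjusted p = 0.0314). It was the only gene of the members and the 5 related lists for which this difference passed the test. Of all genes, 0.61% passed it. All 3 pools of PND 40 (2175 to 2393 CPM) lay above the highest pool of PND 16 large (1684 CPM). Without the 3 pools high in granulosa markers, the 2 log2 fold changes of Bub1b were 0.73 and 0.28, the first with a single PND 13 pool. The difference for Bub1b was not examined without those pools. For Ttk, the next nearest to the threshold, the difference was 0.43 (edgeR adjusted p = 0.0709). No pool of the members stood far from the others of its group by Dixon's criterion, among the groups of 6 pools to which it was applied.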

How the results depend on the processing

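Of 80 results for single members, 17 passed the test, and 7 of these did so under every alternative, the removal of each pool included. Of those that did not pass, 7 passed under at least 1 alternative other than the removal of 1 pool. No member changed direction past the threshold. Without the fold criterion, in place of 0, the counts of members called were 4 in PND 40 vs. PND 13, 1 in PND 16 large vs. PND 16 small, 5 in PND 16 large vs. PND 13, 3 in PND 40 vs. PND 16 small, 1 in PND 16 small vs. PND 13 and 3 in competent vs. non-competent oocytes. By adjusted p alone, the count for PND 16 large vs. PND 16 small was 0 with only those cohorts in the fit and 2 with DESeq2, that for PND 16 large vs. PND 13 was 2 with total counts and 3 with no filter, and that for PND 16 small vs. PND 13 was 0 with total counts or only those cohorts and 2 with DESeq2. Without the 3 pools highest in granulosa markers, which leaves 1 pool at PND 13, these counts were 2, 1 and 0, that for PND 40 vs. PND 13 was 2, and the ratio of Cdc20 to Fzr1 differed by 0.385. Fewer pools remain in that alternative, and the cause of the lost calls was not tested further. The share of all genes passing was followed in the main fits and, in 3 comparisons, without those 3 pools. Elsewhere, the removal of each pool included, a change in a count of members cannot be told from a general change in calls.

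Leaving out each pool in turn gave counts by adjusted p of 4 to 5 for PND 40 vs. PND 13, 0 to 2 for PND 16 large vs. PND 16 small, 1 to 4 for PND 16 large vs. PND 13, 2 to 4 for PND 40 vs. PND 16 small, 0 to 3 for PND 16 small vs. PND 13, 3 to 4 for competent vs. non-competent, 4 to 6 over the 4 cohorts and 0 to 1 for the difference between the steps, and a difference of 0.3414 to 0.48 for the ratio of Cdc20 to Fzr1. Same-numbered pools did not deviate together from their cohort means (correlations -0.442 to 0.0753, vs. -0.324 to 0.458 for pools of different number). The labels do not say whether pools of the same number were handled together, and these correlations cannot decide it. With the replicate number as a block, the count for PND 16 small vs. PND 13 was 0 and that of no other comparison moved by over 1.5 times, the count in competent vs. non-competent oocytes being 3. With 3 pools a cohort, changes of less than about the 95% intervals given could not be resolved.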
